A study of Mus musculus with 2 samples.

Results

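Platelet-derived growth factor (PDGF) signalling was examined through 6 genes, the receptors Pdgfra and Pdgfrb and the ligands Pdgfa, Pdgfb, Pdgfc and Pdgfd, taken by name from the 32285 genes counted. Their transcripts were followed across LEPR stromal, fibroblast-like, endothelial-like, megakaryocyte-like and erythroid-like cells, to find which classes carried a ligand (senders) and which a receptor (receivers). The cells came from the femurs and tibiae of 3 INK-ATTAC mice, given as male in the labels and 24 months old, which were pooled into a single sample. INK-ATTAC mice carry a cassette in which a fragment of the p16 promoter drives an inducible caspase 8 that is switched on by the drug AP20187, and these animals had received no treatment. Marrow and digested bone were combined, freed of red cells by lysis, depleted of blood lineages including Ter-119-positive erythroid cells, and sorted for live CD45-negative cells, so the class shares depend on this sort.

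The 3′ ends of transcripts were counted as unique molecular identifiers (UMIs, each standing for a captured molecule within its count set) in 2 count sets. The sets are labelled as replicates 1 and 2 and are called lanes here. Lane 1 held 116827845 UMIs over 10968 barcodes (median 3980) and lane 2 held 120556381 over 11016 (median 4094.5). The lanes shared 10928 barcodes and thus held the same cells. The squared lane differences came to 0.559 of the summed counts, less than independent sampling would give. The lanes were therefore counted as 1 sample and the UMIs of a barcode were added up. A molecule can thus have been counted in both lanes, so summed UMIs and depths are not numbers of molecules. With 1 biological sample no test between animals was possible. Levels are in CPM, the UMIs of a gene per 1000000 UMIs of a class. The 95% intervals in parentheses come from the mean of the lanes for levels and ratios, and for shares from cells where either lane had a UMI. They cover counting error only. A class without a UMI of a gene was read against a floor, the level that 3 counts would give.

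PDGF receptors are tyrosine kinases of mesenchymal cells that are brought together in pairs by dimeric ligands. PDGF-A and PDGF-C act mainly through the alpha receptor, PDGF-D mainly through the beta receptor, and PDGF-B binds both. In blood vessels PDGF-B from endothelial cells recruits pericytes that carry the beta receptor, megakaryocytes load PDGF into platelet granules, and in marrow both receptors are widely used to mark stromal cells.

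LEPR stromal cells were those with at least 1 UMI of Lepr and at least 5000 CPM of Cxcl12, which 1877 of the 9573 barcodes kept met (19.6%). Just outside this gate the highest Cxcl12 level among cells with Lepr was 4967 CPM, and just inside the lowest was 5239 CPM. The other classes were clusters named from marker genes, without cells of the gate, and came to 143 fibroblast-like, 63 endothelial-like, 145 megakaryocyte-like and 6398 erythroid-like cells. Median depths, in UMIs of both lanes, were 5188 in LEPR stromal, 8434 in fibroblast-like, 3185 in endothelial-like, 8848 in megakaryocyte-like and 28445.5 in erythroid-like cells. A cluster of 46 plasma cell-like cells (8 of 8 markers) was not compared further, and held 5 Pdgfb and 2 Pdgfra UMIs, each in 1 cell, and none of the other PDGF genes. Another 4 clusters, with 885 cells outside the gate (9.24% of those kept), stayed unnamed. Counted with their gate cells, 1 carried 11 of 12 LEPR markers and the others 6, 7 and 12 of 14 erythroid markers. They had low depth, with medians from 1639.5 to 2928.5 UMIs, and no marker of the nearest list among their leading genes. The 885 cells outside the gate carried 0 of 12 LEPR and 14 of 14 erythroid markers. Of the gate cells, 1322 lay in the LEPR stromal-like cluster. A further 414 lay in the unnamed cluster with 11 of 12 LEPR markers and 136 in that with 7 of 14 erythroid markers. The PDGF genes had no part in the clustering.

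Clusters were named from marker lists and the gate used Lepr and Cxcl12, so the markers of a class in its own cells describe it and are no check of its name. LEPR stromal cells carried 12 of 12 LEPR markers, and fibroblast-like cells 12 of 12 markers of Sca-1 fibroblasts, led by Prg4 at 3442 CPM. Endothelial-like cells carried 11 of 12 endothelial markers (summed level 5516 CPM, Egfl7 highest at 789) and megakaryocyte-like cells 11 of 11 of theirs (28020 CPM, Pf4 highest at 21965). Transcripts of other cell types were also present. The erythroid list came to 2609 CPM in LEPR stromal, 6953 in fibroblast-like, 8906 in endothelial-like and 8079 in megakaryocyte-like cells, with Hbb-bs highest in each, against 33851 CPM in erythroid-like cells. LEPR stromal cells carried 4 of 10 osteoblast markers (5558 CPM), with Ibsp highest at 2969 CPM in 80.8% of cells, where fibroblast-like cells had 3046 CPM of Ibsp in 28.7% of cells. The fibroblast-like cells carried 8 of 10 osteoblast markers (22644 CPM, Spp1 highest at 15223), 3 of 6 chondrocyte markers (1639 CPM, Comp highest at 1210) and 2 of 9 pericyte markers (851 CPM, Rgs5 highest at 367).

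Positions are those of the GENCODE vM21 annotation of GRCm38. Pdgfra (ENSMUSG00000029231) spans 75152292 to 75198215 of chromosome 5, plus strand, and 7 of its 9 transcripts are protein-coding. Pdgfrb (ENSMUSG00000024620) spans 61045150 to 61085061 of chromosome 18, plus strand, and both of its transcripts are coding. Pdgfa (ENSMUSG00000025856) occupies 138976014 to 138997370 of chromosome 5, minus strand, and 4 of its 7 transcripts are coding. For Pdgfb (ENSMUSG00000000489) the span is 79995874 to 80014977 of chromosome 15, minus strand, with 3 coding transcripts of 4. The longest genes were Pdgfd (ENSMUSG00000032006), at 6168584 to 6378850 of chromosome 9, plus strand, with 3 transcripts, all coding, and Pdgfc (ENSMUSG00000028019), at 81036416 to 81214040 of chromosome 3, plus strand, with 1 coding transcript of 3. The UMIs of all transcripts of a gene were counted together, and counts of 3′ ends were not divided by transcript length, so levels of different genes are compared only as UMIs.

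Pdgfra, the receptor for PDGF-A and PDGF-C, was found in the mesenchymal classes. Its level was 380 CPM in lane 1 and 381 CPM in lane 2 in LEPR stromal cells, and 227 and 245 CPM in fibroblast-like cells. The log2 ratio of LEPR stromal to fibroblast-like cells was 0.69 (0.47 to 0.91), or 1.61-fold. Megakaryocyte-like cells had 3.76 CPM (1.45 to 7.95) from 13 UMIs in 4 cells, or 2.04 CPM without the cell that held 6 of them, endothelial-like cells 2.91 CPM (0.00286 to 27.2) from 1 UMI, and erythroid-like cells 0.342 CPM (0.239 to 0.475). The erythroid-like level was 0.928 CPM as a mean of the cells' own CPM and 0.582 CPM when clusters came from log-normalized counts. In the order of levels, the interval between megakaryocyte-like and endothelial-like cells (log2 ratio 0.37, -3.34 to 10.52) and that between endothelial-like and erythroid-like cells (3.09, -6.93 to 6.40) covered 0. Of all 4868 Pdgfra UMIs in the cells kept, 84.0% lay in LEPR stromal, 7.91% in fibroblast-like and 5.75% in unnamed cells.

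A Pdgfra UMI was seen in 1334 LEPR stromal cells (71.1%, 69.0% to 73.1%) and 89 fibroblast-like cells (62.2%), against a background of 0.953% in the deeper erythroid-like cells. To compare shares at 1 depth, the lane 1 counts of each cell were thinned at random to 2000 UMIs and shallower cells were left out. This kept 7711 cells and left out 582 LEPR stromal, 14 fibroblast-like, 41 endothelial-like, 39 megakaryocyte-like and 506 erythroid-like cells. After thinning, the Pdgfra share was 50.0% in LEPR stromal, 35.7% in fibroblast-like and 0.0679% in erythroid-like cells. LEPR stromal cells were thus above fibroblast-like cells by level and thinned share. The intervals of the shares before thinning overlapped (53.8% to 70.2% in fibroblast-like cells). None of the 22 endothelial-like cells left after thinning had a Pdgfra UMI, which allows up to 13.6%, so their place beside erythroid-like cells could not be read.

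Pdgfrb, the receptor that binds PDGF-B and PDGF-D, separated the mesenchymal classes more widely. In LEPR stromal cells it stood at 842 CPM in lane 1 and 844 CPM in lane 2, against 159 and 161 CPM in fibroblast-like cells. The log2 ratio was 2.40 (2.15 to 2.66), or 5.26-fold. Endothelial-like cells had 32.0 CPM (11.1 to 72.0), megakaryocyte-like cells 4.63 CPM (1.997 to 9.11) and erythroid-like cells 0.690 CPM (0.539 to 0.869), the last at 1.27 CPM as a mean over cells and 1.301 CPM after log-normalized clustering. Each class differed from the next in this order beyond counting error, but the endothelial-like level came from 11 UMIs in a single cell that also held 67 UMIs of the pericyte gene Rgs5. Without the 2 endothelial-like cells that had at least 3 pericyte markers, left out after the data had been seen, the other 61 held no Pdgfrb UMI, which allows up to 17.9 CPM. After log-normalized clustering the endothelial-like class also held none. LEPR stromal cells held 87.5% and fibroblast-like cells 2.52% of the 10359 Pdgfrb UMIs. Of the 9 pericyte markers, LEPR stromal cells carried 1 (304 CPM in sum, Notch3 highest at 245).

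The share of LEPR stromal cells with a Pdgfrb UMI was 89.6% (88.1% to 91.0%), against 53.8% of fibroblast-like, 4.83% of megakaryocyte-like and 1.84% of erythroid-like cells, the last taken as background. Thinned to 2000 UMIs, the shares were 78.9%, 26.4%, 0.943% and 0.187%, of which the megakaryocyte-like value was 1 of 106 cells. Pdgfrb was therefore the more widely detected receptor in LEPR stromal cells. In fibroblast-like cells the share intervals of Pdgfra (53.8% to 70.2%) and Pdgfrb (45.3% to 62.2%) overlapped, also after thinning (27.4% to 44.6% and 19.0% to 34.8%).

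The balance of the receptors turned between both classes, each taken as a whole. Per UMI of Pdgfra, LEPR stromal cells held 2.22 UMIs of Pdgfrb (log2 ratio 1.15, 1.07 to 1.22) and fibroblast-like cells 0.678 (-0.56, -0.89 to -0.23). In erythroid-like cells the few receptor UMIs stood at 2.01 (1.01, 0.41 to 1.63), next to the balance of LEPR stromal cells. Megakaryocyte-like cells stood at 1.23 (0.30, -1.39 to 2.05) and endothelial-like cells at 11 (3.46, -0.34 to 13.6), with intervals that covered 0.

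**Figure D1:**
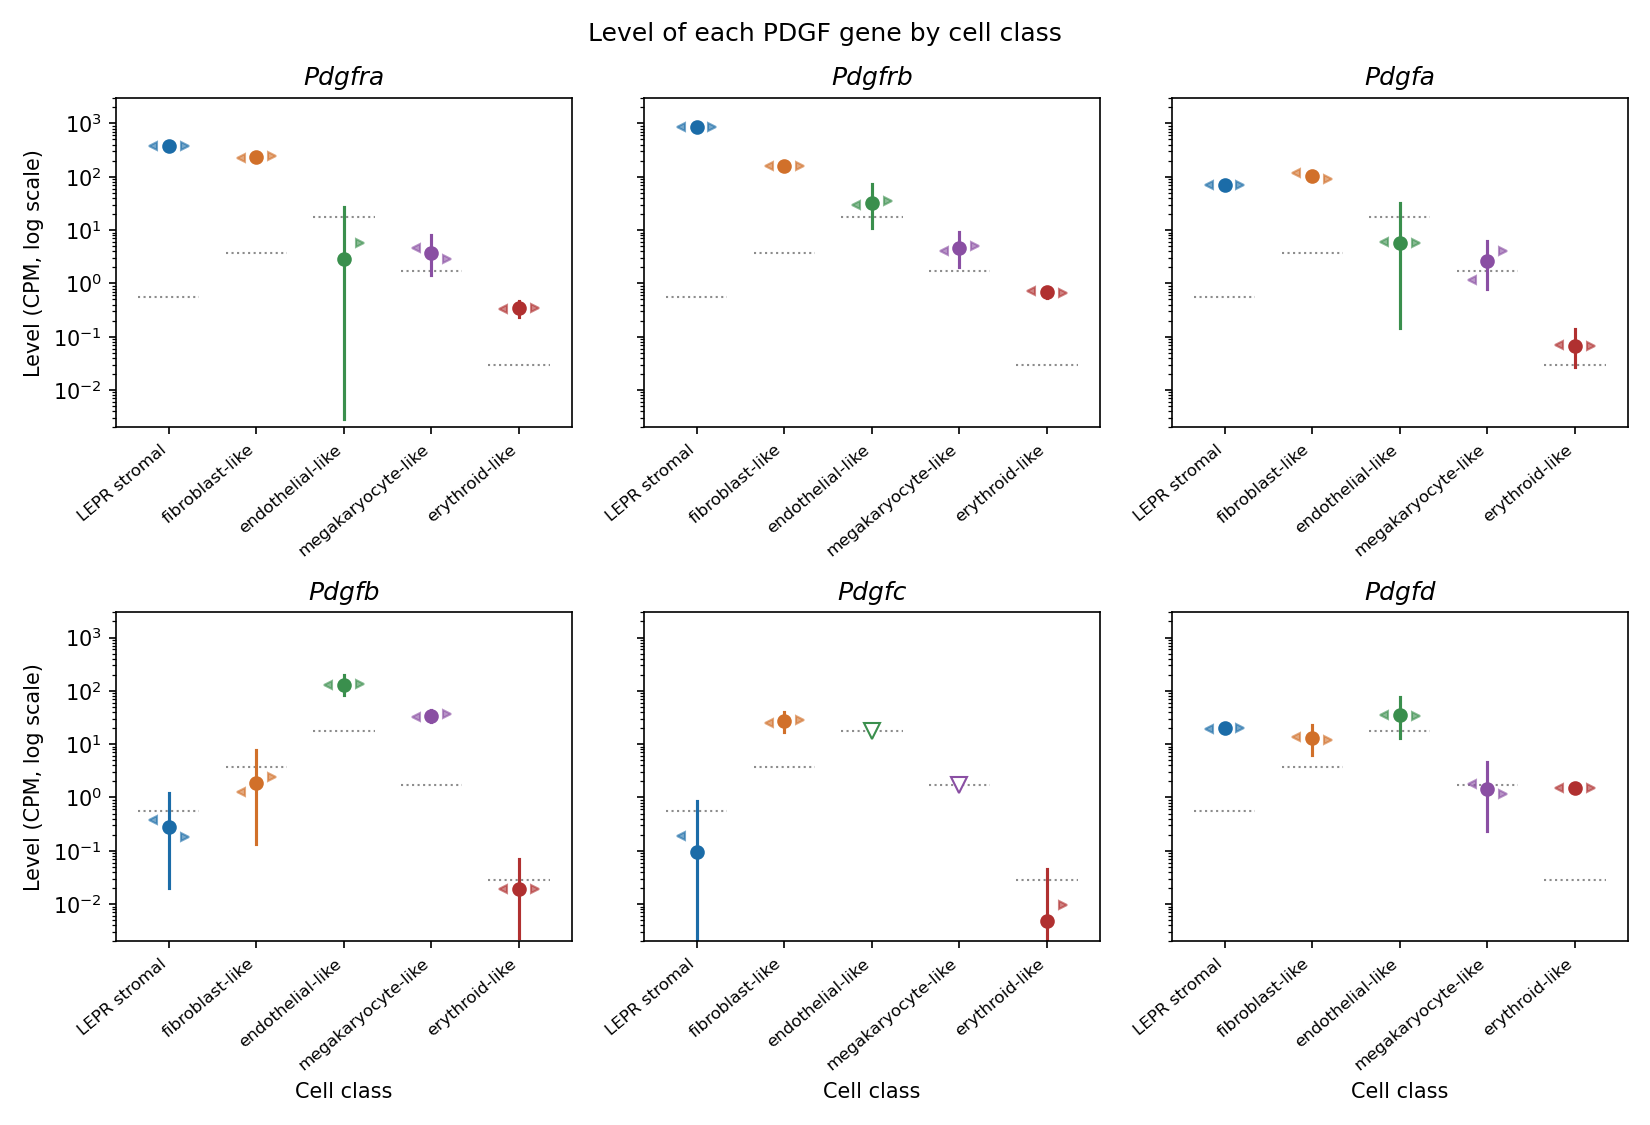
Level of each PDGF gene in CPM (log axis) in the 5 cell classes, 1 panel per gene; circles are both lanes with 95% counting intervals, which go on below where they reach the lower edge, small triangles pointing left and right are lanes 1 and 2, dotted lines are the level that 3 counts give in a class, and open downward triangles mark classes without a UMI. Both receptors are highest in LEPR stromal cells, at 380 and 843 CPM, Pdgfb in endothelial-like cells at 131 CPM and Pdgfc in fibroblast-like cells at 27.0 CPM.

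Both receptors were detected together in 1248 of the 1877 LEPR stromal cells (66.5%, 64.3% to 68.6%), Pdgfrb alone in 434 (23.1%), Pdgfra alone in 86 (4.58%) and neither in 109 (5.81%). The product of the single shares, taken within quartiles of depth, would give 1227.3 cells with both. Thinned to 2000 UMIs, 505 of 1295 LEPR stromal cells (39.0%) had both, where the product of shares gives 511.4. Joint detection of Pdgfra and Pdgfrb in LEPR stromal cells was therefore close to what their separate shares give. Among fibroblast-like cells 54 of 143 (37.8%) had both, against 52.6 from the product within depth quartiles, and 16 of 129 (12.4%) after thinning. In erythroid-like cells 7 of 6398 (0.109%, 0.0440% to 0.225%) had both, where the product within depth quartiles gives 1.28, so joint detection exceeded the product there. After thinning no erythroid-like cell had both, which allows up to 0.0509%.

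Detection of the receptors in LEPR stromal cells rose with depth, while their levels moved less. From the shallowest to the deepest quartile of these cells, the Pdgfra share went from 46.0% to 88.2% and the Pdgfrb share from 71.5% to 98.3%. Pdgfra levels were 336, 402, 440 and 345 CPM in the 4 quartiles, with no steady direction. Pdgfrb levels were 954, 931, 924 and 724 CPM, lowest in the deepest cells.

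Within the fibroblast-like class, the receptors differed between cells with osteoblast markers, cells with pericyte markers and the rest. This division, made after the data had been seen, set apart 36 cells with a UMI of at least 5 osteoblast markers (median 8868.5 UMIs), 9 cells with at least 3 pericyte markers (median 6709) and 98 with neither (median 8436.5). The 98 cells carried the fibroblast genes Dpt at 404 and Pi16 at 294 CPM. The bone matrix gene Ibsp reached 8698 CPM in the osteoblast-marker cells and the pericyte gene Rgs5 6767 CPM in the pericyte-marker cells. Ibsp and Rgs5 belong to the lists that made this division, so their levels describe it and are no check of it.

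Pdgfra was at 308 CPM in lane 1 and 331 CPM in lane 2 in the 98 remaining fibroblast-like cells, at 99.9 and 112 CPM in the osteoblast-marker cells, and without a UMI in the pericyte-marker cells, which allows up to 70.1 CPM. Pdgfra was thus lower in the osteoblast-marker cells than in the remaining fibroblast-like cells (log2 ratio -1.59, -2.23 to -0.995). Pdgfrb took the opposite course, with 761 and 781 CPM in the pericyte-marker cells, from 66 UMIs in 8 of 9 cells, and 125 CPM (96.8 to 160) in the remaining cells (log2 ratio 2.62, 1.97 to 3.25). In osteoblast-marker cells Pdgfrb was at 128 CPM (87.8 to 180), which did not differ from the remaining cells beyond counting error. The 98 remaining cells held 331 Pdgfra and 130 Pdgfrb UMIs, osteoblast-marker cells 54 and 65, and pericyte-marker cells 0 and 66. The excess of Pdgfra UMIs in the whole fibroblast-like class thus came from the remaining cells. Set against the 98 remaining cells alone, LEPR stromal cells had a Pdgfra ratio of 0.25 (0.02 to 0.49) on the log2 scale and a Pdgfrb ratio of 2.75 (2.40 to 3.12). The higher Pdgfra level of LEPR stromal cells was thus small against these cells, and the higher Pdgfrb level was not.

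**Figure D2:**
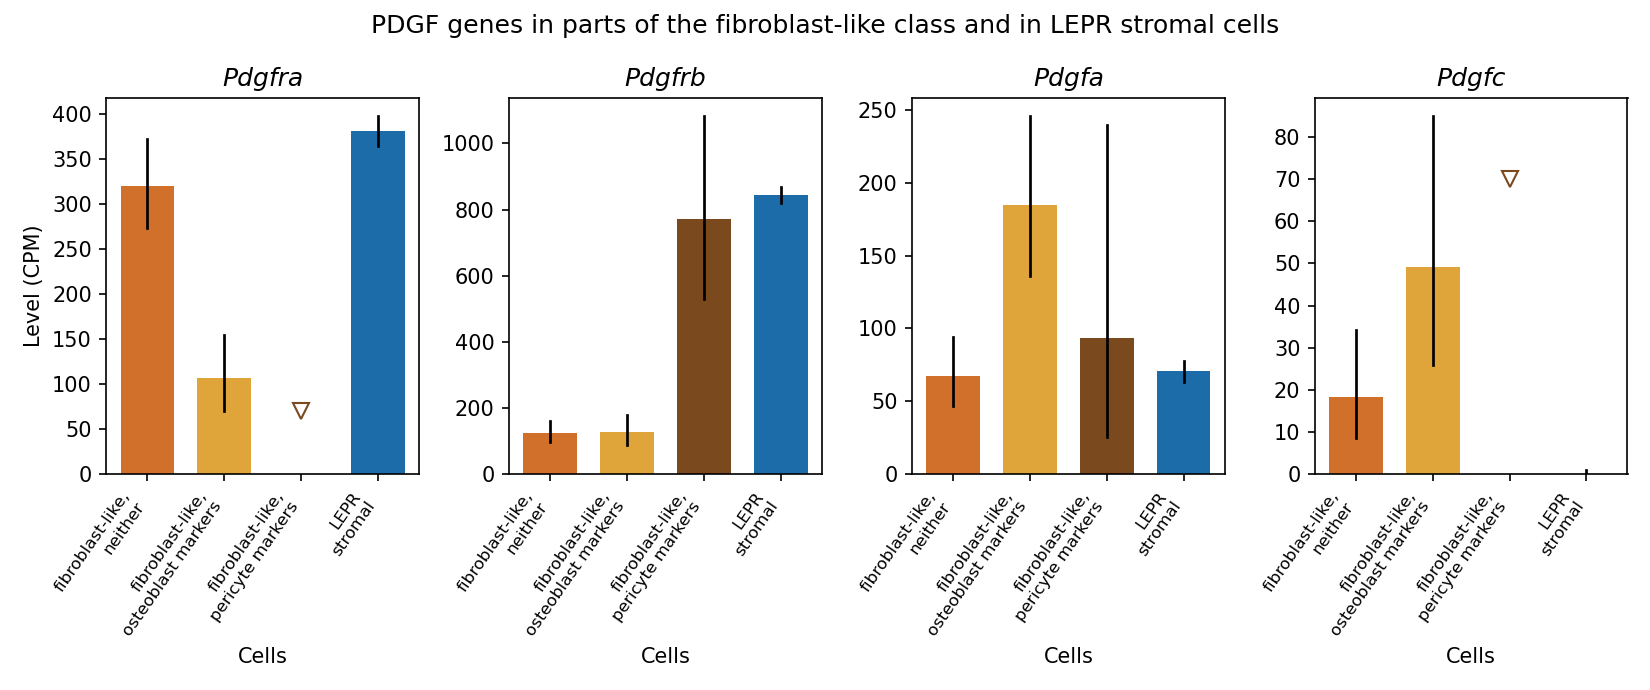
Levels of Pdgfra, Pdgfrb, Pdgfa and Pdgfc in CPM (bars from 0) in fibroblast-like cells with neither marker set, with osteoblast markers or with pericyte markers, and in LEPR stromal cells; lines are 95% counting intervals and open triangles mark 0 UMIs, drawn at the 3-count limit. Pdgfrb is near 771 CPM in the pericyte-marker cells and 843 CPM in LEPR stromal cells, and Pdgfa is highest in the osteoblast-marker cells, at 185 CPM.

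LEPR stromal cells, clustered again without the PDGF genes, formed 7 groups, of which 5 were LEPR stromal-like by their markers. Among these 5, Pdgfra ran from 358 CPM in a group of 477 cells led by Lgals1 and Serpina12 to 448 CPM in a group of 397 led by Lum and Sned1, a 1.25-fold range (log2 0.32, 0.13 to 0.52). Pdgfrb ran from 761 CPM in a group of 27 cells led by Cxcl14 and Spp1 to 998 CPM in a group of 507 led by Adamtsl3, Rspo2 and Bmp4, a 1.31-fold range (log2 0.39, 0.03 to 0.78). Both receptors were thus spread over all LEPR stromal-like groups. The other 2 groups, of 75 and 60 cells, carried erythroid markers. The group of 60 had less receptor RNA, with Pdgfra at 142 CPM (106 to 185) and Pdgfrb at 412 CPM (349 to 482). In the group of 75, Pdgfra at 298 CPM (204 to 419) and Pdgfrb at 714 CPM (564 to 891) overlapped intervals of LEPR stromal-like groups. Of the 75 and 60 cells, 4 and 24 were called doublets. The part of these groups in the levels of the class was not tested.

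Pdgfa, which encodes the chain of PDGF-AA, the ligand of the alpha receptor, was found in the same classes as that receptor. Fibroblast-like cells had 120 CPM in lane 1 and 91.9 CPM in lane 2, and LEPR stromal cells 71.2 and 69.9 CPM. The log2 ratio of LEPR stromal to fibroblast-like cells was -0.58 (-0.92 to -0.23), but 2 of the 143 fibroblast-like cells held 29 and 25 of the 172 UMIs. Without the first the ratio was -0.32 (-0.69 to 0.06) and without both, left out after the data had been seen, -0.06 (-0.46 to 0.36), at 73.7 CPM in fibroblast-like cells. The direction between both classes thus rested on these cells. Endothelial-like cells had 5.82 CPM from 2 UMIs and megakaryocyte-like cells 2.60 CPM from 9 UMIs, with a log2 ratio of 1.16 (-4.43 to 4.40) between them. The megakaryocyte-like value depended on how cells were weighted, and was 52.4 CPM as a mean of the cells' own CPM and 25.5 CPM without 1 cell that held 2 Pdgfa UMIs among 510. Erythroid-like cells had 0.0675 CPM (0.0272 to 0.139), or 0.179 as a mean over cells and 0.151 after log-normalized clustering.

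A Pdgfa UMI was seen in 22.1% of LEPR stromal and 30.1% of fibroblast-like cells, against 0.219% of erythroid-like cells as background. After thinning, these shares were 11.97%, 16.3% and 0.0170%. LEPR stromal cells, being more numerous, held 74.4% of the 1019 Pdgfa UMIs and fibroblast-like cells 16.9%.

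Within the fibroblast-like class, Pdgfa was higher in the osteoblast-marker than in the remaining cells. These had 212 CPM in lane 1 and 159 CPM in lane 2, while the 98 remaining cells had 67.6 CPM (47.1 to 93.9), a log2 ratio of 1.45 (0.79 to 2.13). A cell of the osteoblast-marker group held 29 of its 94 Pdgfa UMIs and a cell of the remaining group 25 of its 70. Without these cells the levels were 130 and 44.3 CPM and the log2 ratio 1.56 (0.74 to 2.40), so this difference did not rest on them. The log2 ratio of LEPR stromal to the remaining cells did, at 0.06 (-0.44 to 0.61) with the cell of 25 UMIs and 0.67 (0.06 to 1.36) without it.

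Within LEPR stromal cells, Pdgfa varied more between groups than the receptors did. It was at 101 CPM in the group led by Lgals1 and Serpina12, where a single cell held 37 of the 282 UMIs (88.5 CPM without it), 72.3 CPM in that led by Adamtsl3, 71.1 CPM in a group of 334 cells led by Gm26802, Fos and Egr1, 55.2 CPM in that led by Cxcl14, and 38.7 CPM in that led by Lum. The range was 2.61-fold (log2 1.38, 0.84 to 1.97). The cell with 37 UMIs met the gate but lay in the cluster of fibroblast-like cells, whose class would be at 127 CPM with it, and LEPR stromal cells without it at 67.2 CPM. Adipoq, an adipocyte-lineage gene of LEPR stromal cells, was at 1600, 1247, 943, 1687 and 788 CPM in the same order of groups.

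Pdgfa and its receptor were seen together in 323 LEPR stromal cells, as many as the product of their shares within depth quartiles gives (323.0). Pdgfa with Pdgfrb was seen in 392 LEPR stromal cells, against 388.1 from that product. In fibroblast-like cells Pdgfa and Pdgfra met in 20 cells, where the product gives 27.1, and Pdgfa and Pdgfrb in 24, where it gives 23.7. In LEPR stromal cells, joint detection of Pdgfa with either receptor was thus close to what the separate shares give.

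Pdgfb, which encodes the ligand of both receptors, was nearly absent from the mesenchymal classes and was found in endothelial-like and megakaryocyte-like cells. Endothelial-like cells had 130 CPM in lane 1 and 132 CPM in lane 2, from 45 UMIs in both lanes, and megakaryocyte-like cells had 32.3 and 36.5 CPM, from 119 UMIs. The log2 ratio of endothelial-like to megakaryocyte-like cells was 1.93 (1.16 to 2.65), or 3.81-fold. After log-normalized clustering, which gave 61 endothelial-like cells, Pdgfb was at 198 CPM in them. Megakaryocyte-like cells in turn exceeded fibroblast-like cells by a log2 ratio of 4.22 (2.07 to 8.05). LEPR stromal cells held 3 Pdgfb UMIs in 2 cells (0.279 CPM, 0.0201 to 1.19), fibroblast-like cells 3 in 2 cells, and erythroid-like cells 4 in 2 cells, all at or under the floor, so no ratio was formed among these 3 classes. Against endothelial-like cells, the LEPR stromal level had a log2 ratio of -8.88 (-12.75 to -6.62).

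Because megakaryocyte-like cells were more numerous and held more RNA, 66.5% of the 179 Pdgfb UMIs were theirs and 25.1% were endothelial-like. The share of cells with a Pdgfb UMI was 39.7% of endothelial-like cells (25 of 63, 27.6% to 52.8%) and 19.3% of megakaryocyte-like cells (28 of 145, 13.2% to 26.7%), against 0.0313% of erythroid-like cells. After thinning, 10 of the 22 endothelial-like cells left (45.5%) and 3 of the 106 megakaryocyte-like cells left (2.83%) had one, and no erythroid-like cell did, which allows up to 0.0509%. Pdgfb was therefore the more frequent in endothelial-like cells at 2000 UMIs, by few cells. At 1000 UMIs, which kept 48 and 124 cells of these classes, the shares were 12.5% (4.73% to 25.2%) and 2.42% (0.502% to 6.91%), and the intervals overlapped.

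Few deep cells held most of the megakaryocyte-like Pdgfb UMIs. The 8 cells over 100000 UMIs (median 140732) held 68 of the 119 Pdgfb UMIs (57.1%) and 41.6% of the UMIs of the class, and 1 of them held 30. Pf4, a platelet chemokine, was present in 5 of the 8, and none of the 8 was called a doublet. All 68 of these Pdgfb UMIs lay in 4 of the 5 cells with Pf4, and the 3 without it had none. In the whole class, too, the 119 Pdgfb UMIs lay in 28 of the 115 cells with Pf4 and in none of the 30 without. Pdgfb was at 47.2 CPM (32.7 to 66.0) in these 8 cells. The remaining 137 cells, 24 of them (17.5%) with a Pdgfb UMI, had 25.3 CPM (16.4 to 37.2). The log2 ratio between them was 0.90 (0.12 to 1.70), and 0.40 (-0.54 to 1.31) without the cell with 30 UMIs, at 33.3 CPM in the other deep cells, so a difference in level rested on that cell. Without it the class was at 28.2 CPM and endothelial-like cells still exceeded it, by a log2 ratio of 2.22 (1.42 to 2.98).

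The markers of either class were low in the other. In megakaryocyte-like cells 0 of 12 endothelial markers were found (142 CPM in sum, Pecam1 highest at 44.5), with Emcn, Ptprb, Cav1 and Cldn5 at 0. In endothelial-like cells 1 of 11 megakaryocyte markers was found (338 CPM in sum, Pf4 highest at 102), with Gp1ba, Gp6 and Tubb1 at 0. Endothelial-like cells also carried 4 of 6 blood progenitor markers (714 CPM, Mecom highest at 317), as did megakaryocyte-like cells (291 CPM, Adgrg1 highest at 113). Other blood transcripts in megakaryocyte-like cells were those of the neutrophil list (0 of 7 markers found, 3200 CPM, Elane highest at 885), the plasma cell list (0 of 8, 1713 CPM, Ighm highest at 950.3), the macrophage list (1 of 8, 297 CPM, Lyz2 highest at 287) and the B cell list (2 of 5, 294 CPM, Vpreb3 highest at 161). In the 8 deepest cells the neutrophil list came to 2776 CPM (Elane highest at 1657) and the megakaryocyte list to 38961 CPM. The part of these transcripts in the Pdgfb level was not tested beyond the split by Pf4. Without the 2 pericyte-marker cells, endothelial-like Pdgfb was at 134 CPM (84.6 to 202) in the same 25 cells.

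Pdgfc, a ligand of the alpha receptor that is secreted in an inactive form and released by proteases, was found in fibroblast-like cells. Its level there was 24.9 CPM in lane 1 and 29.0 CPM in lane 2, from 44 UMIs in 23 of 143 cells (16.1%, 10.5% to 23.1%). LEPR stromal cells held 1 UMI in 1877 cells, a log2 ratio to fibroblast-like cells of -8.18 (-18.22 to -4.82). Erythroid-like cells held 1 UMI, and endothelial-like and megakaryocyte-like cells held none, which allows up to 17.5 and 1.73 CPM. Fibroblast-like cells thus held 93.6% of the 47 Pdgfc UMIs, and the endothelial-like limit was not far below their level.

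After thinning, 5.43% of fibroblast-like cells had a Pdgfc UMI and no LEPR stromal cell did, which allows up to 0.232%. Of the fibroblast-like Pdgfc UMIs, 25 came from 15 osteoblast-marker cells, at 49.2 CPM (25.8 to 85.0), while the remaining cells had 18.3 CPM (8.60 to 34.2) in 8 cells. The log2 ratio was 1.42 (0.09 to 2.81). Pdgfc was thus present with and without osteoblast markers.

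Pdgfd, a ligand of the beta receptor that is likewise released by proteases, was the ligand with the widest spread. Endothelial-like cells had 35.6 CPM in lane 1 and 34.4 CPM in lane 2, LEPR stromal cells 19.1 and 20.5 CPM, and fibroblast-like cells 13.7 and 12.1 CPM. These 3 classes did not differ from their neighbours beyond counting error, with log2 ratios of 0.82 (-0.66 to 1.99) for endothelial-like over LEPR stromal and 0.62 (-0.29 to 1.69) for LEPR stromal over fibroblast-like cells. The endothelial-like level rested on 12 UMIs in 7 cells. After log-normalized clustering it was 55.2 CPM, and LEPR stromal cells stood at a log2 ratio of -1.48 to it, with an interval that narrowly left out 0. Erythroid-like cells followed at 1.51 CPM (1.28 to 1.77), or 2.28 CPM as a mean over cells, and megakaryocyte-like cells at 1.45 CPM (0.240 to 4.63) from 5 UMIs (0.885 CPM without the cell that held 2), with a log2 ratio of 0.06 (-1.64 to 2.67) between them. Fibroblast-like cells exceeded erythroid-like cells by 3.09 (2.03 to 3.99) on the log2 scale.

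A Pdgfd UMI was seen in 156 LEPR stromal cells (8.31%), 11 fibroblast-like cells (7.69%), 7 endothelial-like cells (11.1%, 4.59% to 21.6%) and 218 erythroid-like cells (3.41%). After thinning, the shares were 4.09%, 3.88%, 4.55% (1 of 22 cells) and 0.509%. The erythroid-like share of Pdgfd was the largest of the PDGF genes in that class, before and after thinning. Of the 586 Pdgfd UMIs, 53.4% lay in erythroid-like cells, which held 89.3% of all UMIs, and 36.3% in LEPR stromal cells.

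In LEPR stromal cells, Pdgfd exceeded its erythroid-like level by a log2 ratio of 3.71 (3.35 to 4.08), against 10.12 (9.64 to 10.64) for Pdgfra, 10.26 (9.92 to 10.61) for Pdgfrb and 10.03 (8.97 to 11.35) for Pdgfa. The Pdgfd ratio thus lay below those of the receptors and Pdgfa, beyond their intervals. Over the 5 LEPR stromal-like groups Pdgfd ran from 12.3 to 26.5 CPM, a range whose interval covered 0 (log2 1.11, -1.44 to 6.45).

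Within erythroid-like cells, Pdgfd differed over globin content from Pdgfrb and from Cxcl12, the chemokine gene of the gate. When the cells were ordered by the share of globin transcripts, from under 0.5% to 6% or more, Pdgfd was at 0.873, 1.87, 1.33, 1.77 and 2.47 CPM. Over the same steps Pdgfrb was at 0.915, 0.822, 0.505, 0.646 and 0.682 CPM and Cxcl12 at 25.1, 23.1, 20.6, 17.4 and 18.2 CPM. Pdgfd in cells with at least 0.5% globin exceeded that in the others by a log2 ratio of 0.96 (0.29 to 1.70). The same ratio was -0.36 (-0.50 to -0.22) for Cxcl12 and, with intervals that covered 0, -0.56 (-1.31 to 0.24) for Pdgfrb and -0.94 (-1.98 to 0.17) for Pdgfra. In an erythroid-like cluster of 1545 cells led by Gm26917 and histone genes (5 of 14 erythroid markers, median 5652 UMIs), however, these transcripts were higher together. Pdgfd was at 4.93 CPM there and 1.34 CPM in the other erythroid-like cells, a log2 ratio of 1.88 (1.195 to 2.51). The ratio was 2.29 (0.85 to 3.51) for Pdgfra, 1.60 (0.44 to 2.60) for Pdgfrb and 1.74 (1.56 to 1.91) for Cxcl12, so the intervals of all 4 genes overlapped. In another erythroid-like cluster with 5 of 14 markers, of 510 cells, Pdgfd was at 0.518 CPM, at its floor. The part of depth in these differences was not tested.

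**Figure D3:**
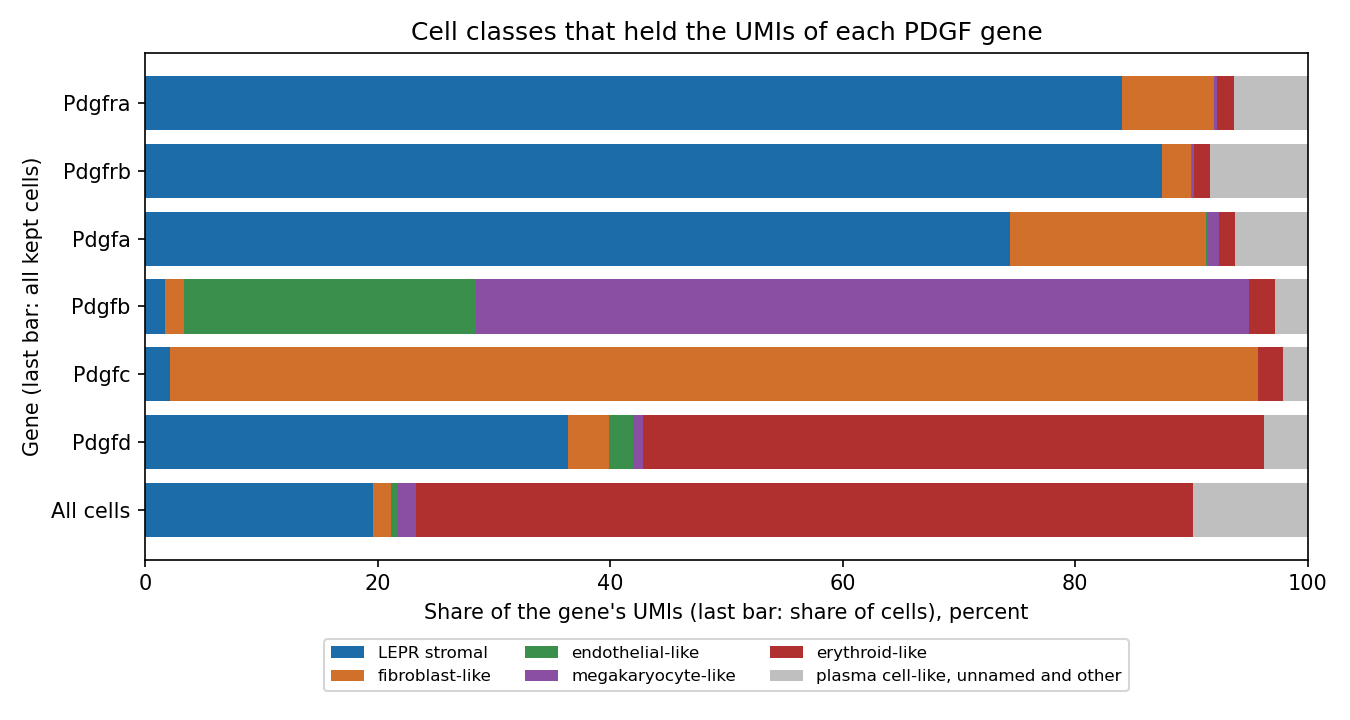
Percent of the UMIs of each PDGF gene held by each cell class (stacked horizontal bars), with the percent of all kept cells as the last bar. Receptor and Pdgfa UMIs lie mostly in LEPR stromal cells (84.0%, 87.5% and 74.4%), Pdgfb UMIs in megakaryocyte-like and endothelial-like cells (66.5% and 25.1%), Pdgfc UMIs in fibroblast-like cells (93.6%) and Pdgfd UMIs in erythroid-like and LEPR stromal cells (53.4% and 36.3%).

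As senders, the classes thus carried different ligands. Pdgfb was the ligand of endothelial-like and megakaryocyte-like cells, which had no or few receptor UMIs outside a single pericyte-marker cell. Pdgfa was shared by LEPR stromal and fibroblast-like cells, both of which also carried the receptors. Pdgfc was the ligand of fibroblast-like cells, which held 44 of its 47 UMIs. Pdgfd was shared by endothelial-like, LEPR stromal and fibroblast-like cells, at 34.9, 19.8 and 12.9 CPM, so endothelial-like cells carried both Pdgfb and Pdgfd. The numerous erythroid-like cells had a lower Pdgfd level, 1.51 CPM, but held 53.4% of its UMIs. As receivers, LEPR stromal cells held the highest level of both Pdgfra and Pdgfrb among the 5 classes. The 9 pericyte-marker cells of the fibroblast-like class held Pdgfrb at 771 CPM (531 to 1083). This interval covers the LEPR stromal level of 843 CPM. These 9 cells had no UMI of Pdgfra, which allows up to 70.1 CPM.

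The genes most like each PDGF gene were sought across all 16 clusters, among 11807 genes with at least 100 UMIs as the mean of the lanes, by Pearson r of log2(CPM + 1). The clusters share a library and differ in depth, so r is a description only. Pdgfra was closest to Egfr (0.994), Cygb (0.991) and Shox2 (0.989), and Pdgfrb to Csf1 (0.996), Vcam1 (0.995) and Igfbp5 (0.991). Pdgfa was closest to Pmp22 (0.993), Lpar1 (0.992) and Abi3bp (0.991). The endothelial adhesion genes Pecam1 (0.976), F11r (0.973) and Esam (0.949) were closest to Pdgfb. Pdgfc was closest to Chad (0.994), Anxa8 (0.993) and Mmp3 (0.993), and Pdgfd to Nck1 (0.951), Rnf215 (0.947) and Lmbr1 (0.944). Pdgfb and Pdgfc themselves had only 89.5 and 23.5 UMIs by that mean. Among the PDGF genes, r was 0.968 for Pdgfra with Pdgfa, 0.947 for Pdgfra with Pdgfrb, 0.702 for Pdgfra with Pdgfd and -0.0122 for Pdgfra with Pdgfb.

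Beyond the ligands and receptors, 54 genes were followed, of which 43 belong to the pathway, from proteases that release the ligands to adaptors and inhibitors of the receptor signal, and 11 are related receptors and ligands of other growth factors. Against fibroblast-like cells, 16 of the 47 with a mean of at least 10 CPM (34%) were more than 2-fold higher in LEPR stromal cells, where 16.7% of all 9307 such genes were, and 10 (21.3%) were more than 2-fold lower, where 10.8% of all genes were. Without the 11 related genes the counts were 12 of 42 (28.6%) and 10 (23.8%). Of these 12 and 10 genes, 4 and 6 were under 10 CPM in the class where they were lower and met the minimum mean through the other, so these counts are a description only. The median log2 ratio was 0.40 for the 42 genes and 0.17 for all genes.

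Of the 6 protease genes, St14 had no UMI in LEPR stromal or fibroblast-like cells, and Furin was at 58.3 CPM in the former and 38.6 CPM in the latter (log2 ratio 0.59, 0.06 to 1.17). Plat, which encodes the tissue plasminogen activator that releases PDGF-C, was at 0.744 and 46.6 CPM (-5.97, -7.92 to -4.50), and Plau, which encodes urokinase, at 0.558 and 31.9 CPM (-5.84, -8.20 to -4.13). The proprotein convertase genes Pcsk6 (0.651 and 96.9 CPM) and Pcsk5 (21.0 and 49.1 CPM) had log2 ratios of -7.22 (-9.30 to -5.72) and -1.22 (-1.75 to -0.66). Plat, Plau and Pcsk6 met the minimum mean only through fibroblast-like cells. Plat was also at 32.0 CPM in endothelial-like cells, so it was not particular to fibroblast-like cells. Of the 5 genes for co-receptors and partners, Nrp1 was higher in LEPR stromal cells (682 and 87.7 CPM). Cspg4, the NG2 proteoglycan (1.02 and 48.5 CPM), and Pdgfrl (0.837 and 69.9 CPM) were lower. Both met the minimum mean only through fibroblast-like cells. Of the 5 ligand-binding genes, Sparc was lower (1158 and 3585 CPM). A2m was higher (32.4 CPM against no UMI), but met the minimum mean only through LEPR stromal cells.

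Of 17 adaptors and enzymes, 5 (beside 16.7% of all genes) were more than 2-fold higher in LEPR stromal than in fibroblast-like cells, among them Pik3r1, a subunit of the PI3 kinase that binds PDGF receptors (459 and 189 CPM), and 1 (beside 10.8% of all genes), the kinase gene Fyn, was lower (2.88 and 50.9 CPM). Of 10 negative regulators, 5 were higher, among them Spry1 (361 and 74.2 CPM) and Cblb (131 and 33.1 CPM), and 2 lower, Spry2 (22.5 and 54.6 CPM) and Acp1 (66.0 and 137 CPM). Acp1 was highest in erythroid-like cells (426 CPM), whose marker list was also higher in fibroblast-like than in LEPR stromal cells, and the part of this was not tested. These lists are small, and nothing is read from their counts. Fyn met the minimum mean only through fibroblast-like cells. Of the 5 related VEGF-family ligands, 3 were more than 2-fold higher in LEPR stromal cells, with Vegfc at 239 and 4.91 CPM, Vegfa at 209 and 61.3 CPM and Pgf at 70.6 and 17.8 CPM. Of these, Vegfc met the minimum mean only through LEPR stromal cells. Vegfb was at 37.4 and 19.6 CPM. Vegfd, under the minimum mean, had the opposite direction at 3.07 and 14.7 CPM (log2 ratio -2.26, -3.42 to -1.06).

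Against endothelial-like cells, 17 of 45 of the 54 genes (37.8%) were more than 2-fold higher in LEPR stromal cells, beside 22.6% of all genes, and 7 (15.6%) were lower, beside 18.7% of all genes. Without the related genes these were 13 of 37 (35.1%) and 4 (10.8%). Of these 13 and 4 genes, 3 and 2 were under 10 CPM in the class where they were lower, as were 1 and 3 of the related genes counted, so the counts and the genes Lrp1, Flt1 and Kdr are given as a description. The LDL receptor relative Lrp1, a partner of Pdgfrb, was at 407 CPM in LEPR stromal and 2.91 CPM in endothelial-like cells. The related receptor genes Flt1 (1.67 and 746 CPM) and Kdr (1.12 and 370 CPM) had the opposite direction, as did Hspg2, which encodes the matrix proteoglycan perlecan (50.2 and 233 CPM). Against megakaryocyte-like cells, 25 of 42 (59.5%) were higher in LEPR stromal cells, beside 34.1% of all genes, and 5 (11.9%) lower, beside 20.6% of all genes, among the latter Ptpn11 (45.3 and 227 CPM) and Grb2 (43.9 and 134 CPM). Against erythroid-like cells, 33 of 40 (82.5%) were higher, beside 40.9% of all genes, and 1 (2.5%), Acp1, was lower, beside 20.3% of all genes, at 66.0 and 426 CPM. Without the related genes, 22 of 37 (59.5%) and 29 of 35 (82.9%) were higher against these last classes, but 13 and 20 of them were under 10 CPM there and had to differ to be counted, so nothing is read from these shares.

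Promoter sequence is given for Pdgfra and Pdgfd, a receptor and a ligand whose log2 ratios of LEPR stromal to erythroid-like cells, 10.12 and 3.71, lay far apart. Of the 6 genes, 4 had an entry in the RefSeq promoter table (GRCm38.p6), and Pdgfb and Pdgfrb had none. Each sequence is the 250 bases before the start that RefSeq gives, which lies upstream of the GENCODE start of both genes, on the plus strand, Pdgfra from chr5:75152001-75152250 and Pdgfd from chr9:6168236-6168485, and neither window overlaps an annotated exon. Motifs chosen after the sequences had been seen were searched on both strands. They were TATAAA, present in the 250 upstream bases of 12.4% of all 32851 promoters of the table, then CCAAT, present in 33.8%, then GGGCGG, present in 32.7%, and AGATAA, present in 9.99%. Capitals mark matches. Pdgfra had none of the 4, and Pdgfd had AGATAA 223 bases before the RefSeq start and TATAAA 160 bases before it, each 1 time on the strand of the gene, without overlap. The Pdgfc window had none of the 4. The Pdgfa windows, of 2 entries, had GGGCGG 1 and 2 times, and both lay inside the gene and overlapped annotated exons.
Pdgfra: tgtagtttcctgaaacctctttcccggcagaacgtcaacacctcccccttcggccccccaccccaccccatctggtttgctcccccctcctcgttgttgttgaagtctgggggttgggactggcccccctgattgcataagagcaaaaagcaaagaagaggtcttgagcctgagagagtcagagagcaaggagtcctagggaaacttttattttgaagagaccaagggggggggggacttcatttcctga
Pdgfd: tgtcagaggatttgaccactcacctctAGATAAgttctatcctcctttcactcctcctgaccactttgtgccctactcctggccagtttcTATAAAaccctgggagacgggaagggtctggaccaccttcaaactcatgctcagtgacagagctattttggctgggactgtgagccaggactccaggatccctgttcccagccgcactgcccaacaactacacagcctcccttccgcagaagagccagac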

How the data were processed

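Lin-CD45- cells of the femurs and tibiae of 3 pooled mice were run in 2 lanes (10x Chromium 3′ chemistry). What the authors deposited were UMI counts of each lane as Cell Ranger wrote them for called cells, with no normalization. The submitters' processing notes name Cell Ranger, R 4.0.3, Seurat 4.0 and the build mm10, and the headers of the counts name software version 3.0.2, which is not the version stated in the methods.

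Of the 11056 barcodes in either lane, 9573 with at least 200 genes and at most 20% mitochondrial UMIs were kept, in place of the anchor integration of lanes in the methods, with counts summed over lanes. Genes in at least 3 cells entered SCTransform (Seurat 5.3.0, sctransform 0.4.2, R 4.3.3), and 30 principal components of 3000 variable genes, without the PDGF genes, were clustered at a resolution of 0.8. For a name from 1 of 17 lists, a cluster needed at least 3 markers, each with a UMI in 10% or more of its cells and with 25% or more of the CPM in its highest cluster. Clusters with a median depth below the overall median divided by 3 also needed a marker of that list among their 10 highest genes by fold. The thresholds of 10% and 25% were set after the data had been seen. Doublets called by Scrublet (expected rate 8%, scanpy 1.11.5), 186 of the cells kept (1.94%), stayed in. Sums, exact Poisson and Clopper-Pearson intervals and exact conditional binomial ratios were computed with Python 3.11.15, numpy 2.4.6, scipy 1.17.1 and pandas 2.3.3, and plots with matplotlib 3.10.9. Ratio and count functions were tested on simulated data.

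The members and lists were chosen with earlier results of these data known. Named genes are the PDGF genes, the genes of the 7 pathway lists, the markers, the 3 genes most like each PDGF gene, and leading genes of clusters, the 5 highest by fold of those detected in 25% or more of the cells with 100 or more UMIs. Alternatives were a mitochondrial limit of 10%, at least 500 genes, called doublets left out, each lane alone, CPM averaged over cells, a gate of 10000 CPM of Cxcl12, LEPR stromal-like clusters in place of the gate, gate cells over 1% globin left out, resolutions of 0.4 and 1.2, log-normalized counts, PDGF genes allowed in the clustering, thinning to 2000 or 1000 UMIs, and minimum means of 5 or 20 CPM for pathway counts. Leaving out marker-bearing fibroblast-like or endothelial-like cells and the deepest megakaryocyte-like cells, or the cells with most Pdgfa (2 fibroblast-like) or Pdgfb (1 megakaryocyte-like), was added after the data had been seen.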

Additional observations from a re-analysis of the deposited data

Results flagged for a closer look

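PDGF transcripts were also present in barcodes and clusters outside the classes compared, above the level that 3 counts allow. The 1483 barcodes left out by the filters, at a median of 2441 UMIs, held Pdgfra at 9.53 CPM, Pdgfrb at 21.9 CPM, Pdgfa at 1.72 CPM and Pdgfd at 3.05 CPM. Of these barcodes 19 (1.28%) met the LEPR gate, with Pdgfra at 265 CPM, Pdgfrb at 471 CPM and Pdgfa at 58.9 CPM.

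The 885 cells of the unnamed clusters that lay outside the gate held Pdgfra at 39.2 CPM, Pdgfrb at 111 CPM, Pdgfa at 8.96 CPM and Pdgfd at 3.08 CPM. Of these 885 cells 107 (12.1%) were called doublets, against 1.94% of all cells kept. The 16 cells of the LEPR stromal-like cluster that missed the gate held Pdgfra at 342 CPM and Pdgfrb at 959 CPM, beside 380 and 843 CPM within the gate.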

How the results depend on the processing

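Of 540 levels recomputed under the alternatives, 515 stayed within their counting interval and 25 moved. Of 96 ratios of LEPR stromal to the highest other class, 90 stayed within theirs, 5 moved and 1 reversed, and all 16 pathway counts were within 1.5 times. Of 12 thinned shares 10 moved, as did all 4 shares of cells with both receptors. With CPM computed per cell and averaged, Pdgfra was at 281 CPM in fibroblast-like and 0.928 in erythroid-like cells, Pdgfrb at 879 in LEPR stromal, 204 in fibroblast-like and 1.27 in erythroid-like cells, Pdgfa at 52.4 in megakaryocyte-like and 0.179 in erythroid-like cells and Pdgfd at 2.28 in erythroid-like cells, with log2 ratios of 0.44 for Pdgfra and 2.11 for Pdgfrb. In LEPR stromal-like clusters in place of the gate (1338 cells), Pdgfra was at 399.95 and Pdgfrb at 872 CPM. After log-normalized clustering, erythroid-like Pdgfra was at 0.582, Pdgfrb at 1.301 and Pdgfa at 0.151 CPM, and endothelial-like Pdgfb at 198 and Pdgfrb at 0 CPM, the last also with the PDGF genes allowed in the clustering. Among alternatives chosen after seeing the data, fibroblast-like cells without osteoblast- and pericyte-marker cells had Pdgfra at 319, Pdgfrb at 125 and Pdgfa at 67.6 CPM, and log2 ratios of 0.25, 2.75 and 0.06, the last reversed. Without the 2 fibroblast-like cells with most Pdgfa UMIs, Pdgfa was at 73.7 CPM and its log2 ratio -0.06. Without megakaryocyte-like cells over 100000 UMIs Pdgfb was at 25.3 CPM, and without pericyte-marker cells endothelial-like Pdgfrb was at 0 CPM. By single lanes, Pdgfc ranged from 0 to 0.189 CPM in LEPR stromal and from 0 to 0.00950 CPM in erythroid-like cells, and endothelial-like Pdgfra from 0 to 5.73 CPM. Thinned to 2000 UMIs, shares were 50.0% (Pdgfra) and 78.9% (Pdgfrb) in LEPR stromal, 16.3% (Pdgfa) and 5.43% (Pdgfc) in fibroblast-like and 4.55% (Pdgfd) and 45.5% (Pdgfb) in endothelial-like cells and 2.83% (Pdgfb) in megakaryocyte-like cells, and both receptors met in 39.0% of LEPR stromal and 12.4% of fibroblast-like cells. Thinned to 1000, they were 32%, 57.8%, 10.6% and 2.84%, with Pdgfb at 12.5% in endothelial-like and 2.42% in megakaryocyte-like cells and both receptors in 19.5% and 2.84%. The thinnings kept different cells, such as 22 and 48 endothelial-like cells. The cause of these changes was not tested. Among the classes compared, the 63 endothelial-like cells limit precision most, since 3 counts there equal 17.5 CPM. No paired analysis was possible because both lanes hold the same cells of 1 pooled sample.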
